A study of Mus musculus and Homo sapiens with 8 samples.

Results

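The genes described here are 10 genes that macrophages use to recognise, engulf and digest dying cells: CD14, CD68, CSF1R, MERTK, AXL, C1QA, C1QB, C1QC, MSR1 and CD36. They were taken by name from the mouse table of Illumina bead arrays, where each had 1 of the 30854 rows, and 8 of the 10 were tested. The 5 thymus arrays came from CD-1 background mice that were 2.5 weeks old. Of these, 2 carried RNA of thymus labelled TRAF6 null and 2 RNA of wild-type thymus, all 4 after 15 Gy of ionising radiation with 10 h as the stated treatment time, and 1 carried RNA of an unirradiated wild-type thymus. TRAF6 is a ubiquitin ligase downstream of Toll-like receptors and TNF family receptors. The 3 other arrays of the series, from the human lung cancer line H1299, were not used. The labels give neither the construction of the null allele nor whether arrays of a group came from separate mice, so p-values measure only the spread between these arrays. No array of unirradiated TRAF6 null thymus was analysed here, so differences present before irradiation and those that followed it cannot be told apart.

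Thymocytes that fail selection die in large numbers in a healthy thymus, and ionising radiation kills many more. Macrophages remove the corpses. MERTK and AXL are receptor kinases that bind phosphatidylserine on a dying cell through bridging proteins, GAS6 for both and protein S for MERTK. C1q, built of A, B and C chains, coats corpses and starts the classical complement pathway. CD14, the scavenger receptor MSR1 and CD36 also bind apoptotic cells or their lipids, CSF1R is the receptor through which macrophages receive survival signals, and CD68 is a glycoprotein of their lysosomes.

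Rows with a detection p under 0.01 numbered 9519 and 9493 for thymus labelled TRAF6 null, 11177 and 10911 for irradiated wild type and 10298 without irradiation. The TRAF6 row checked no label: its normalized log2 signal was 9.04 and 8.61 on the arrays labelled TRAF6 null, against 7.66 and 7.72 on the irradiated wild-type arrays (log2 difference 1.13 ± 0.20 SE, limma adjusted p = 0.0122), and the position of its probes relative to the deletion is not given in the sources used here. Each direction below that involves these arrays rests on their labels. For the tissue, 11 of 12 thymocyte markers were above background on the unirradiated array and CD8A was not above background on any array.

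C1QA, C1QB and C1QC are consecutive protein-coding genes on mouse chromosome 4. Promoters from RefSeq (GRCm38.p6, 250 bases before to 50 bases after the start) matched 6 of the 10 genes, and 3 are shown: the C1q neighbours C1QB (chr4:136886151-136886450, minus strand) and C1QC (chr4:136892865-136893164, minus strand), whose profiles over the 5 arrays were the closest of any pair described here, and CD68 (chr11:69666121-69666420, minus strand), the lysosomal gene. Capitals mark GAGGAA, a core that the macrophage factor PU.1 can bind, and TGCTGA, a MAF half-site, on either strand.
C1QB: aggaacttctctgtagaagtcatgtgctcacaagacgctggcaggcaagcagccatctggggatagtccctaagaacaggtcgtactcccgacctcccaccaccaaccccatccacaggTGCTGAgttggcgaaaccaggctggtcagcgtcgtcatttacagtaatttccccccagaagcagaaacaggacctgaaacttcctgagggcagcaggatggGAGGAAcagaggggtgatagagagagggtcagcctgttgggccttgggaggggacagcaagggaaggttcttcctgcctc
C1QC: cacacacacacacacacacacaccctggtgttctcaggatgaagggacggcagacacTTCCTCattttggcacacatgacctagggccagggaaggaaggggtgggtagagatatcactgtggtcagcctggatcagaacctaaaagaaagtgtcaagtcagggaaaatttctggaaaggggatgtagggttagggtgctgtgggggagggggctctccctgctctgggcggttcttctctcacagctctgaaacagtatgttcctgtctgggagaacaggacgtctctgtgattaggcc
CD68: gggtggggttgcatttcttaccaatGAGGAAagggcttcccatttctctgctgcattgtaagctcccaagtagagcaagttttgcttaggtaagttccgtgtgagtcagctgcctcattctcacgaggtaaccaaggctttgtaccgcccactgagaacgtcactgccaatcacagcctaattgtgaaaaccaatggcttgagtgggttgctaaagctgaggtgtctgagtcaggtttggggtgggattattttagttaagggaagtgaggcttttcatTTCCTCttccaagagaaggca
In C1QB, GAGGAA lay 30 bases and TGCTGA 131 bases before the start on the gene's strand. In C1QC, GAGGAA lay 193 bases before the start on the opposite strand, read as TTCCTC here. CD68 held GAGGAA 225 bases before the start and on the opposite strand 29 bases after it. Of 32851 mouse promoters of this length, 28.3% held GAGGAA and 19.5% held TGCTGA on either strand, so such matches are common. The E-box CACGTG, found in 7.15% of promoters, was in none of these 3. Of the matched promoters not shown, AXL held GAGGAA without TGCTGA, CD36 held TGCTGA without GAGGAA, and MERTK held neither.

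Over all tested members, 7 of 8 were higher and 0 lower in irradiated than in unirradiated wild-type thymus (limma, Benjamini-Hochberg adjusted p under 0.05, fitted over 11563 rows), where 18.6% of all rows tested were called higher and 17.5% lower. The members' median log2 difference was 1.55 and that of all rows was 0.05. Between irradiated groups, 2 of 8 were higher (CSF1R and C1QC) and 1 lower (CD14) in those labelled TRAF6 null than in wild type, beside 20.9% and 22.9% of all rows, a share near the background. Set against the unirradiated array, thymus labelled TRAF6 null had all 8 tested members higher and 0 lower, beside 13.6% and 14.9% of all rows. These comparisons share arrays and are not independent of each other. Unirradiated wild type has just 1 array, and the fit takes its spread from the other groups. Of the 8, 6 were detected on all 5 arrays, while MERTK and AXL passed the filter through irradiated arrays, so the counts over tested members are descriptions. With array 1 or array 2 of irradiated wild type left out, 0 members passed limma's test for irradiation of wild type and 0 between genotypes, and of all rows none passed for irradiation. At an unadjusted p under 0.05, 6 of the 7 members still tested were past for irradiation in both cases, and between genotypes 3 were past without array 1 and 2 without array 2. In RNA of a whole thymus, more cells of a type, more RNA per cell and less RNA from other cells cannot be told apart. Summed signal of 12 thymocyte markers was 58691.4 on the unirradiated array, against 24321.9 and 18248.6 in irradiated wild type.

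**Figure D1:**
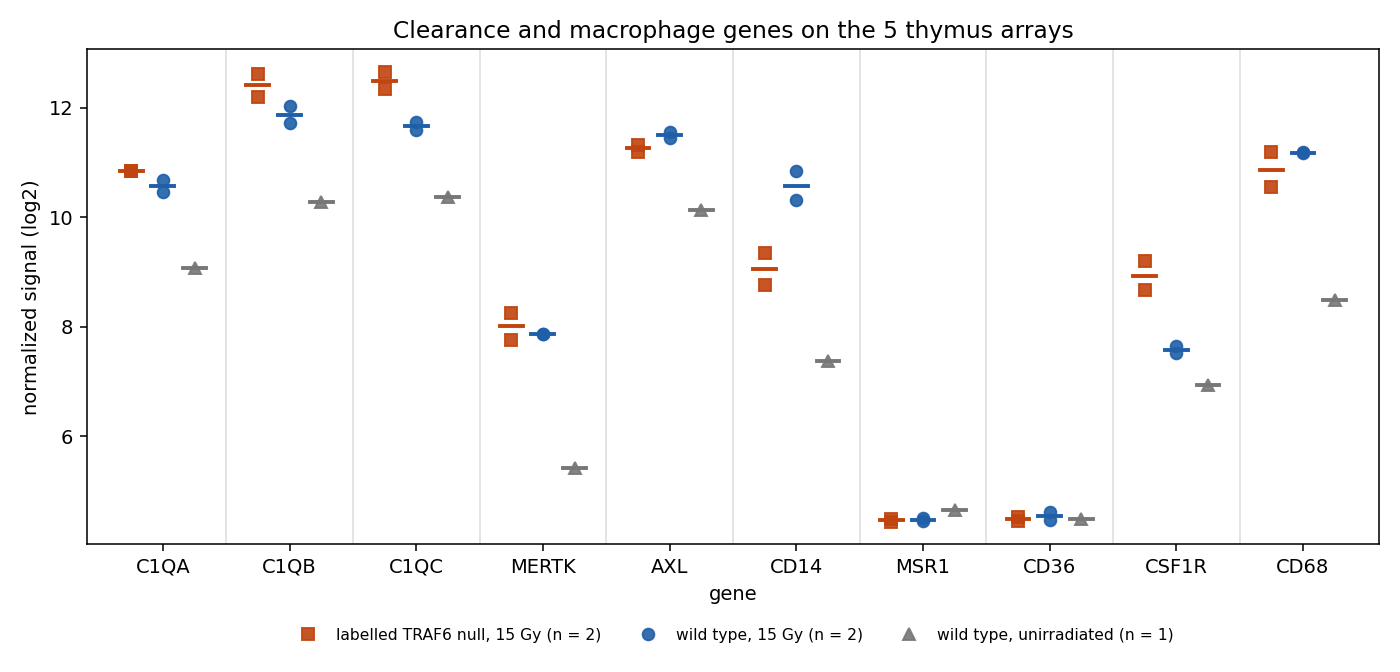
Normalized log2 signal of each of the 10 genes (vertical axis) on each array, with a short bar at the group mean: squares for thymus labelled TRAF6 null after 15 Gy, circles for wild type after 15 Gy and triangles for the unirradiated wild-type array. CSF1R, C1QA, C1QB and C1QC are highest in thymus labelled TRAF6 null and CD14 in irradiated wild type, while MSR1 and CD36 stay at the bottom in every group. Heights of different genes come from different probes and are not comparable.

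The C1q chains were higher in both irradiated groups than on the unirradiated array. C1QC had a mean bead signal of 5191.9 and 7318.7 on the arrays labelled TRAF6 null, 3301.2 and 2845.4 in irradiated wild type and 1560.1 on the unirradiated array. The 3 groups did not overlap, and thymus labelled TRAF6 null was the highest. After background correction and quantile normalization, C1QC was 1.77-fold higher in thymus labelled TRAF6 null than in irradiated wild type (log2 difference 0.83 ± 0.18 SE, limma adjusted p = 0.0218) and 2.45-fold higher in irradiated than in unirradiated wild type (1.30 ± 0.23, adjusted p = 0.0149).

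C1QB had signals of 4779.2 and 7030.1 in thymus labelled TRAF6 null, against 3929.5 and 3093.5 in irradiated wild type and 1462.7 without irradiation. Its groups kept the same order without overlap. The difference between genotypes did not pass (log2 difference 0.53, 95% interval -0.04 to 1.10, limma adjusted p = 0.108), although it passed when arrays were scaled by their medians. Irradiation of wild type came with a 3.02-fold higher C1QB (log2 1.60 ± 0.27 SE, adjusted p = 0.0141).

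C1QA had signals of 1806.4 and 1969.9 in thymus labelled TRAF6 null, 1557.4 and 1668.1 in irradiated wild type and 659.3 without irradiation. Both irradiated groups lay well above the unirradiated array and close to each other, with thymus labelled TRAF6 null the higher, without overlap. C1QA was 2.83-fold higher in irradiated than in unirradiated wild type (log2 1.50 ± 0.20 SE, limma adjusted p = 0.00941), and its log2 difference between genotypes was 0.28 (95% interval -0.14 to 0.70, limma adjusted p = 0.213). Against the unirradiated array, thymus labelled TRAF6 null had C1QA 3.44-fold, C1QB 4.38-fold and C1QC 4.35-fold higher (limma adjusted p = 0.00968, 0.011 and 0.00922).

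The receptor kinases MERTK and AXL were both higher after irradiation of wild type and did not pass between genotypes. MERTK had signals of 268 and 368.3 on the arrays labelled TRAF6 null, 362.4 and 339.1 in irradiated wild type and 128.5 on the unirradiated array, where it was not above background (a signal over 133.3, the 99th percentile of negative controls there). The irradiated groups overlapped. Irradiated wild type was at least 4.87-fold and thymus labelled TRAF6 null at least 5.37-fold above the unirradiated array, each as the group mean over the lowest value that counted as above background (limma adjusted p = 0.00747 and 0.00898). Between genotypes the log2 difference of MERTK was 0.14 (95% interval -0.41 to 0.69, limma adjusted p = 0.616), and its sign turned under median scaling and in the authors' matrix. When neqc inferred the background itself, MERTK differed by 0.39 for irradiation of wild type and by 0.45 for thymus labelled TRAF6 null over unirradiated wild type, and neither passed.

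AXL had signals of 2303 and 2732.6 in thymus labelled TRAF6 null, 2928.3 and 2612.4 in irradiated wild type and 1321.1 without irradiation. The irradiated groups overlapped in deposited signal, but in normalized log2 signal both arrays labelled TRAF6 null, at 11.20 and 11.32, lay below both wild-type arrays, at 11.56 and 11.45. AXL was 2.59-fold higher in irradiated than in unirradiated wild type (log2 1.37 ± 0.19 SE, limma adjusted p = 0.00982), and the difference between genotypes was -0.24 (95% interval -0.64 to 0.16, limma adjusted p = 0.251). It entered the test only through the irradiated wild-type arrays, whose detection p was 0.0033 and 0.00742. The detection p was 0.048 and 0.146 on the arrays labelled TRAF6 null and 0.024 on the unirradiated array. Whether AXL was tested thus depended on the irradiated wild-type arrays. These detection p-values came from a row in which several probes had been merged, and they do not follow the signal.

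CD14, which binds lipopolysaccharide with LBP and passes it to Toll-like receptors and which also tethers apoptotic cells, had the largest log2 difference of the tested members after irradiation of wild type. Its signal was 458 and 707.7 in thymus labelled TRAF6 null, 1419.3 and 1838.8 in irradiated wild type and 254.1 on the unirradiated array. The groups did not overlap, with irradiated wild type at the top and thymus labelled TRAF6 null in between. CD14 was 2.88-fold lower in thymus labelled TRAF6 null than in irradiated wild type (log2 -1.52 ± 0.30 SE, limma adjusted p = 0.0153), and irradiated wild type was 9.16-fold above unirradiated wild type (3.20 ± 0.36, adjusted p = 0.00785). Thymus labelled TRAF6 null was 3.19-fold above the unirradiated array (log2 1.67 ± 0.36 SE, limma adjusted p = 0.0301), a call that was lost with neqc's own estimate of the background, in the authors' matrix and with no filter on rows. With neqc's own estimate, the call between genotypes was lost too, at a log2 difference of -1.85.

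CSF1R ran the other way between genotypes. Its signal was 435.1 and 643.9 in thymus labelled TRAF6 null, 324.5 and 287.8 in irradiated wild type and 208.4 on the unirradiated array. The arrays labelled TRAF6 null were above both other groups, without overlap. CSF1R was 2.56-fold higher in thymus labelled TRAF6 null than in irradiated wild type (log2 1.35 ± 0.23 SE, limma adjusted p = 0.0107) and 3.98-fold higher than on the unirradiated array (1.99 ± 0.28, adjusted p = 0.0127). Irradiated against unirradiated wild type, the difference was 0.64 (95% interval -0.08 to 1.36, limma adjusted p = 0.132). With neqc's own estimate of the background and in the authors' matrix, the difference between genotypes was 0.73 and 0.68 and did not pass, and with the first of these the difference from the unirradiated array, 0.87, did not pass either.

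CD68 had signals of 1472.7 and 2529.6 in thymus labelled TRAF6 null, 2363.3 and 2218.5 in irradiated wild type and 466.1 without irradiation. The arrays labelled TRAF6 null lay on either side of wild type, and all 4 irradiated arrays were far above the unirradiated one. CD68 was 6.41-fold higher in irradiated than in unirradiated wild type (log2 2.68 ± 0.31 SE, limma adjusted p = 0.00811) and 5.19-fold higher in thymus labelled TRAF6 null than without irradiation (2.38 ± 0.31, adjusted p = 0.0114). The difference between genotypes was -0.30 (95% interval -0.96 to 0.35, limma adjusted p = 0.368).

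MSR1, a scavenger receptor for modified lipoproteins, and CD36, a fatty acid and phosphatidylserine receptor, were not above background on any of the 5 arrays. Their signals ran from 97 to 106.3 in all groups, under the 99th percentile of negative controls of 131.4 to 140.9, and neither was tested or given a fold change.

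**Figure D2:**
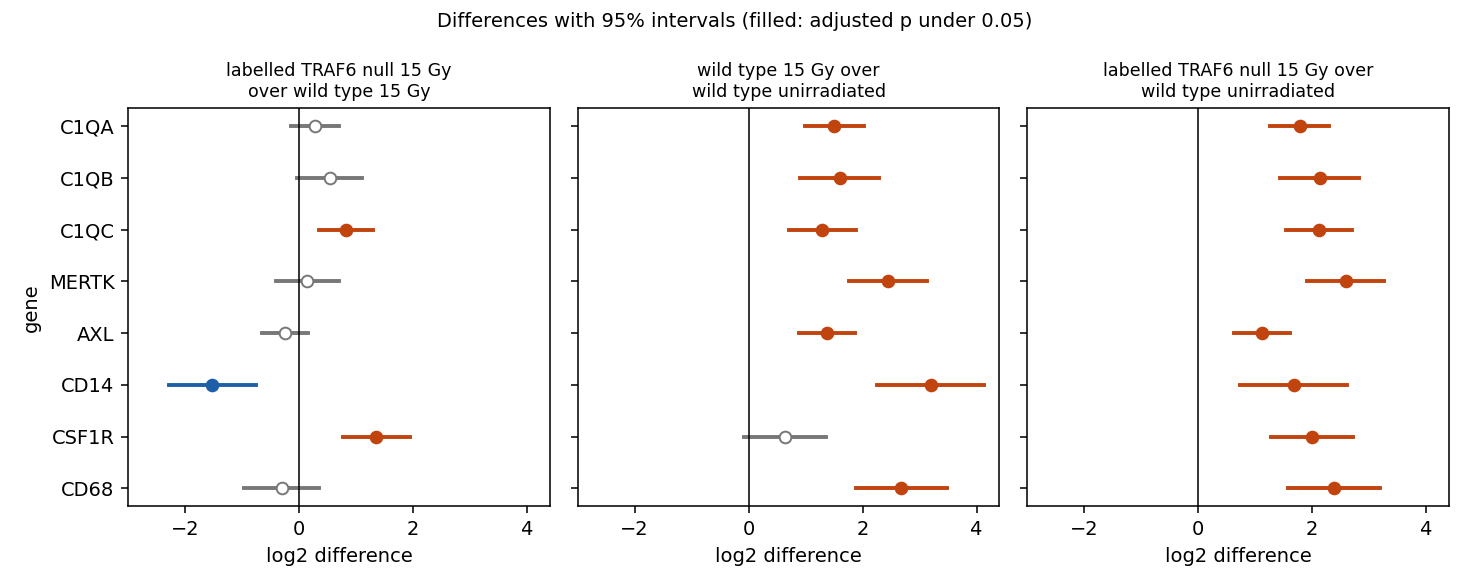
Log2 difference of normalized signal with its 95% interval (horizontal axis) for each of the 8 tested genes, in thymus labelled TRAF6 null over irradiated wild type, in irradiated over unirradiated wild type, and in thymus labelled TRAF6 null over unirradiated wild type. Filled red points passed as higher and the filled blue one as lower at an adjusted p under 0.05, and open points did not pass: CD14 lies left of zero and CSF1R and C1QC right of it between genotypes, and every gene except CSF1R is filled for irradiation of wild type.

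The tested genes followed different profiles across the 5 arrays. The root-mean-square difference between profiles, each centred on its own mean in log2, was smallest for C1QB and C1QC at 0.16, CD68 and MERTK at 0.205, and C1QA and C1QB at 0.26. CD14 and CSF1R were farthest apart at 1.38. Among the other 11555 tested rows, the mean profile of the C1q chains was matched most closely by LRRC8 (now LRRC8A) at 0.0717, CTTNBP2NL at 0.0884, TSPAN4 at 0.0904, HTRA1 at 0.0922 and ISL1 at 0.10. The mean profile of all 8 tested members was matched most closely by PQLC2 (now SLC66A1) at 0.0488, RIPK4 at 0.0659, TSPAN7 at 0.0701, SLC7A7 at 0.0738 and IFITM2 at 0.0818. These are descriptions of 5 arrays, in which genes share the same RNA.

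CSF1R has the ligands CSF1 and IL34. CSF1 had signals of 135.9 and 122.9 in thymus labelled TRAF6 null, 805.7 and 811.3 in irradiated wild type and 129 on the unirradiated array. It stood out in irradiated wild type alone, and of the other 3 arrays it was above background on 1, labelled TRAF6 null. CSF1 was lower in thymus labelled TRAF6 null than in irradiated wild type (log2 -3.90 ± 0.27 SE, limma adjusted p = 0.00255), and irradiated wild type was at least 14.3-fold above the unirradiated array (adjusted p = 0.00612). The first call was lost without irradiated wild-type array 2, the second without array 1 and without array 2, and the log2 differences shrank to -1.49 and 1.50 when neqc inferred the background itself, still past the threshold. IL34 was dim, with signals of 131.8 and 138.3 in thymus labelled TRAF6 null, 152.2 and 161.6 in irradiated wild type and 114.6 without irradiation. IL34 entered the test only through the 2 irradiated wild-type arrays, so a higher value there was a condition of being tested. It was at least 1.26-fold higher in irradiated than in unirradiated wild type (limma adjusted p = 0.0246), which did not pass without background correction, or when neqc inferred the background itself, and its log2 difference between genotypes was -0.18 (adjusted p = 0.441).

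RNA of the bridging proteins GAS6 and protein S was higher after irradiation of wild type. GAS6 had signals of 2381.1 and 2075.3 in thymus labelled TRAF6 null, 2963.5 and 2381.8 in irradiated wild type and 836.4 without irradiation. It was 3.99-fold higher in irradiated than in unirradiated wild type (limma adjusted p = 0.00835), and the log2 difference between genotypes, -0.35, did not pass (adjusted p = 0.204). PROS1, which encodes protein S, had signals of 548.8 and 1133.8 in thymus labelled TRAF6 null, 1063.9 and 959.8 in irradiated wild type and 313.1 on the unirradiated array. It was 4.02-fold higher in irradiated than in unirradiated wild type (limma adjusted p = 0.0252), and the irradiated groups overlapped. MFGE8, which bridges phosphatidylserine to integrins, had signals of 3762.2 and 3016.5 in thymus labelled TRAF6 null, 7157.2 and 6082.2 in irradiated wild type and 2114 without irradiation. It was 2.34-fold lower in thymus labelled TRAF6 null than in irradiated wild type (log2 -1.23 ± 0.21 SE, limma adjusted p = 0.0107) and 4.06-fold higher in irradiated than in unirradiated wild type (adjusted p = 0.00852).

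**Figure D3:**
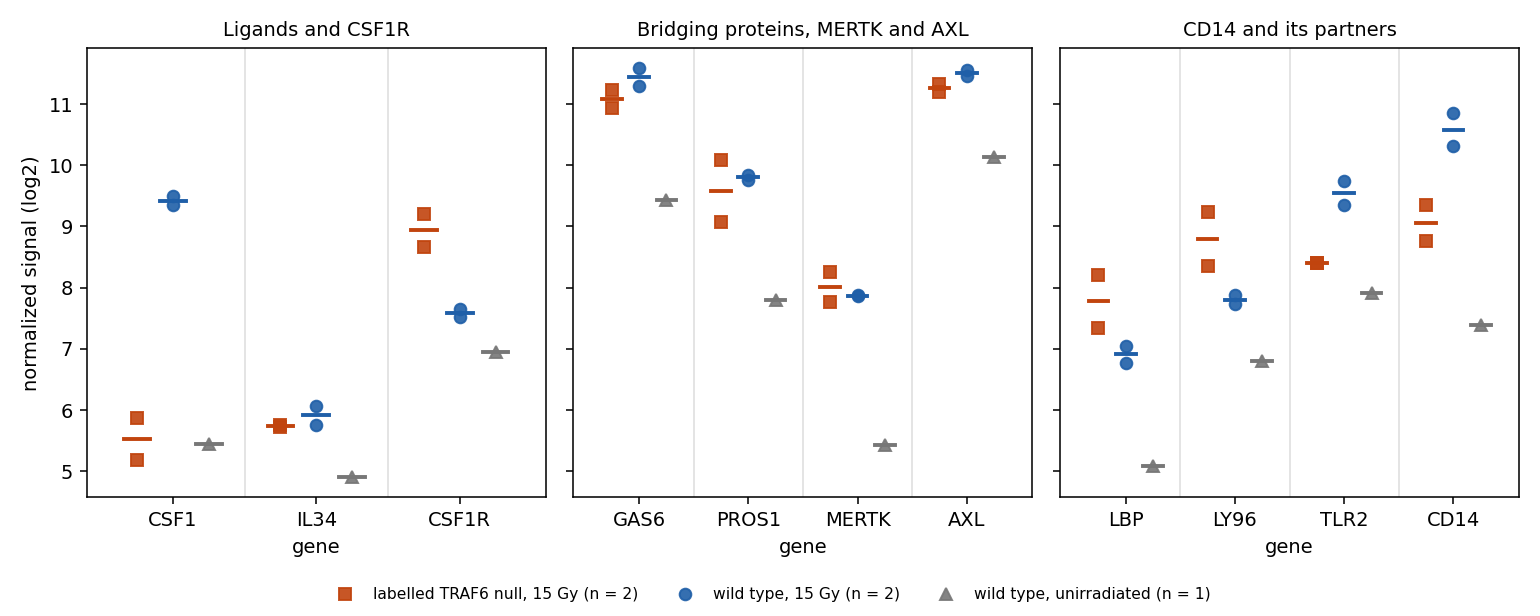
Normalized log2 signal (vertical axis) by array for CSF1, IL34 and CSF1R, for GAS6, PROS1, MERTK and AXL, and for LBP, LY96, TLR2 and CD14, with squares for thymus labelled TRAF6 null after 15 Gy, circles for wild type after 15 Gy, triangles for unirradiated wild type and bars at group means. CSF1 is high on the irradiated wild-type arrays alone while CSF1R is highest on the arrays labelled TRAF6 null, and TLR2 and CD14 share the order of groups.

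Of 20 engulfment receptors and bridging proteins outside the members, 11 were tested. Counts of this list and of those below stand beside the shares of all rows tested. These were 20.9% higher and 22.9% lower between genotypes, and 18.6% and 17.5% for irradiation of wild type. In thymus labelled TRAF6 null 1 was higher and 2 lower than in irradiated wild type (median log2 difference -0.27, all rows -0.03), and in irradiated over unirradiated wild type 7 were higher and 1 lower (median 0.97, all rows 0.05). When neqc inferred the background itself, 3 were higher and 1 lower after irradiation (median 0.51). The scavenger receptor MARCO was at least 5.59-fold higher and STAB1, a phosphatidylserine receptor, 3.84-fold lower after irradiation of wild type (limma adjusted p = 0.0135 and 0.00676). MARCO was detected on irradiated arrays alone, so a higher value there was a condition of being tested. STAB1 was not detected on the unirradiated array, although its signal was 1109.3 there, against 363.6 and 361.8 in irradiated wild type. Its detection p did not follow the signal. Between genotypes the phosphatidylserine receptor TIMD4 was 1.45-fold higher and the integrin subunit ITGB5 1.64-fold lower in thymus labelled TRAF6 null (limma adjusted p = 0.0467 and 0.0225). The TIMD4 call was lost under both other scalings and with the replicate number as a block.

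Of 14 genes that carry the engulfment signal inside the cell, 9 were tested. Between genotypes 0 were higher and 3 lower in thymus labelled TRAF6 null than in irradiated wild type (median -0.09), beside 20.9% and 22.9% of all rows. The lower genes were the exchange factors DOCK2, 2.64-fold, and VAV1, 2.26-fold, and the adaptor CRK, 1.80-fold (limma adjusted p = 0.014, 0.00608 and 0.0262). Irradiated wild type had 1 higher and 1 lower than unirradiated wild type (median -0.07): the kinase PTK2 was 2.83-fold higher and the GTPase RAC2 2.42-fold lower (limma adjusted p = 0.0106 and 0.0113). DOCK2, VAV1 and RAC2 are also expressed in lymphocytes.

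Of 11 genes that sense or export lipid after uptake, 4 were tested. Thymus labelled TRAF6 null had 1 higher and 2 lower than irradiated wild type, and irradiated wild type had 3 higher and 0 lower than unirradiated wild type (median 1.65). The median of these few genes between genotypes had no stable sign: it was -0.62, but 0.23 with detection on all 5 arrays or without array 1 of irradiated wild type, and 0.09 without array 2 labelled TRAF6 null. NR1H3, the sterol-sensing receptor LXR alpha, had signals of 137.4 and 218.2 in thymus labelled TRAF6 null, 593.2 and 515.8 in irradiated wild type and 137.7 without irradiation. Irradiated wild type stood apart from the other arrays. NR1H3 was 4.63-fold lower in thymus labelled TRAF6 null than in irradiated wild type (log2 -2.21 ± 0.42 SE, limma adjusted p = 0.0145), and 8.12-fold higher in irradiated than in unirradiated wild type (3.02 ± 0.51, adjusted p = 0.0143). Its signal was near background on 2 of the other 3 arrays, and when neqc inferred the background itself these log2 differences shrank to -0.73 and 0.82, still past the threshold. The cholesterol exporter ABCG1 was instead 2.07-fold higher in thymus labelled TRAF6 null than in irradiated wild type, and the lipid carrier APOE was 4.30-fold higher in irradiated than in unirradiated wild type (limma adjusted p = 0.00801 and 0.00701).

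Of 17 complement genes other than the C1q chains, 12 were tested. In thymus labelled TRAF6 null 6 were higher and 0 lower than in irradiated wild type (median 0.60), led by C4B, which C1s cleaves, at 3.28-fold, the C1s protease gene C1S1 (row C1S) at 2.67-fold, and the complement regulator CR1L (row CRRY) at 2.44-fold (limma adjusted p = 0.00779, 0.00484 and 0.0127). Of all rows tested, 20.9% were called higher and 22.9% lower between genotypes. Under median scaling 7 of these complement genes were higher and 1 lower, and in the authors' matrix 5 and 1. In irradiated over unirradiated wild type 7 were higher and 1 lower (median 1.08), among them C3, the central component, at 3.10-fold, properdin (CFP) at 2.81-fold and CD93, once described as a C1q receptor, at 2.51-fold (limma adjusted p = 0.00858, 0.01 and 0.0392).

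Of 12 CD14 partners and Toll-like receptor adaptors, 11 were tested. Thymus labelled TRAF6 null had 1 higher and 2 lower than irradiated wild type (median -0.23), beside 20.9% and 22.9% of all rows. TLR2, which works with CD14, had signals of 372 and 401.2 in thymus labelled TRAF6 null, 802 and 947.7 in irradiated wild type and 333 without irradiation, and was 2.20-fold lower in thymus labelled TRAF6 null than in irradiated wild type (log2 -1.14 ± 0.19 SE, limma adjusted p = 0.011). Its partners split, with TLR1 2.41-fold lower and TLR6 2.17-fold higher in thymus labelled TRAF6 null (limma adjusted p = 0.0293 and 0.00808). Irradiated wild type had 5 higher and 0 lower than unirradiated wild type (median 1.01), with LBP at least 2.51-fold, TLR2 3.11-fold and the adaptor TIRAP at least 2.64-fold higher (limma adjusted p = 0.0254, 0.0107 and 0.0183). LBP and TIRAP were detected on irradiated arrays alone, so a higher value there was a condition of being tested. With neqc's own estimate of the background, 1 was higher and 0 lower in each comparison, and under median scaling 1 was higher and 5 lower between genotypes. TLR4 was not tested.

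Of 19 other macrophage markers, 15 were tested. Of all rows tested, 18.6% were higher and 17.5% lower after irradiation of wild type, and 20.9% and 22.9% between genotypes. Irradiated wild type had 9 higher and 1 lower than unirradiated wild type (median 1.06, or 0.81 with dim genes at their bound), led by the lysosomal protease LGMN at 6.88-fold, the antibody receptor FCGR3 at 3.96-fold and SPIC, a transcription factor of red pulp macrophages, at 3.71-fold (limma adjusted p = 0.00966, 0.026 and 0.00811). When neqc inferred the background itself, 3 were higher and 0 lower (median 0.55), and with no filter on rows 4 were higher and 0 lower. PU.1 itself (SPI1, row SFPI1) was at least 1.30-fold higher (limma adjusted p = 0.0132). Thymus labelled TRAF6 null had 2 higher and 1 lower than irradiated wild type (median 0.11, and -0.13 in the authors' matrix): the complement receptor VSIG4 at least 3.81-fold and the protease CTSS 2.03-fold higher, and lysozyme (LYZ2) 1.61-fold lower (limma adjusted p = 0.0155, 0.0235 and 0.0319). VSIG4 entered the test only through the 2 arrays labelled TRAF6 null, so a higher value there was a condition of being tested. These counts were 5 higher and 1 lower without array 1 labelled TRAF6 null, and 2 and 5 without array 2 (median -0.16). With neqc's own estimate of the background 0 passed limma's test in either direction, against 3 at an unadjusted p under 0.05, and with a replicate block 4 were higher and 1 lower. Summed over the 19 rows, signal was 17680.1 and 28260.2 in thymus labelled TRAF6 null, 23819 and 21795.1 in irradiated wild type and 11556.8 without irradiation. ITGAM, the integrin CD11b, was not above background on any array.

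Markers of other cells moved with the same contrasts, and their part in the members' differences was not tested. Their counts stand beside the same shares of all rows, 20.9% higher and 22.9% lower between genotypes and 18.6% and 17.5% after irradiation. Summed over 12 thymocyte markers, signal was 24827.5 and 18204 in thymus labelled TRAF6 null, 24321.9 and 18248.6 in irradiated wild type and 58691.4 on the unirradiated array. Mean normalized log2 over the 12 rows was 8.21 and 7.88 in thymus labelled TRAF6 null, against 8.72 and 8.28 in irradiated wild type. Of the 12, 8 were above background on each array labelled TRAF6 null and 10 on each irradiated wild-type array. Of 10 tested, 0 were higher and 1 was lower between genotypes (median -0.57, or -0.34 with dim genes at their bound). After irradiation of wild type 0 were higher and 4 lower. Neutrophil markers summed over 10 rows to 13803.4 and 23979.7 in thymus labelled TRAF6 null, 11189 and 11146.1 in irradiated wild type and 8873.2 without irradiation. Of 7 tested, 4 were higher and 0 lower between genotypes, and 1 higher and 0 lower after irradiation, while CSF3R and CXCR2 were not above background on any array.

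Fibroblast markers (10 rows) summed to 11926.1 and 14975.2 in thymus labelled TRAF6 null, 6053.6 and 5820.8 in irradiated wild type and 4537.9 without irradiation, with 6 higher and 1 lower of 8 tested between genotypes and COL1A2 at background. Adipocyte markers (8 rows) summed to 3370.5 and 4994 in thymus labelled TRAF6 null, 1632 and 1761.4 in irradiated wild type and 1312.3 without irradiation, with 3 higher and 0 lower of 4, and PLIN1, FABP4, LEP and LIPE at background. Dendritic cell markers (12 rows) summed to 2094 and 2133.5 in thymus labelled TRAF6 null, 4325 and 4232 in irradiated wild type and 2414.8 without irradiation, with 0 higher and 3 lower of 5, and ITGAX, FLT3, CLEC9A, CD209A and CCL22 at background. The arrays labelled TRAF6 null were thus highest for fibroblast and adipocyte markers and lowest for dendritic cell markers. Endothelial markers (10 rows, KDR at background) summed to 3348.4 and 4385.9 in thymus labelled TRAF6 null, 4475.4 and 3828 in irradiated wild type and 2010.2 without irradiation, with 1 higher and 3 lower of 9 between genotypes and 7 higher and 0 lower after irradiation of wild type. Erythroid markers (8 rows, with EPB42 at background) summed to 53841 and 52455.2 in thymus labelled TRAF6 null, 26974 and 45246.2 in irradiated wild type and 48304.6 without irradiation. Of 6 tested, 3 were higher and 0 lower between genotypes, and 0 higher and 3 lower after irradiation of wild type. Of the genes counted in these lists, FCGR1, TICAM1, CDH5 and PDGFRB entered the test only through the 2 irradiated wild-type arrays, and COL6A1 only through the 2 arrays labelled TRAF6 null. Tested through irradiated arrays of both groups alone were MARCO, LRP1, STAB1, DOCK1, ABCA7, SIGLEC1, SPI1, CSF1, LBP, TIRAP, ZBTB46, PLIN4 and CIDEC. None of these was detected at p under 0.01 on the unirradiated array. Counts of list genes higher after irradiation are therefore descriptions. With array 1 or array 2 of irradiated wild type left out, no gene of these 14 lists passed limma's test for irradiation of wild type, and none of the engulfment, lipid, complement, macrophage or CD14 partner genes passed between genotypes. When neqc inferred the background itself, the calls for irradiation of PROS1, MARCO, ABCG1, CD93, FCGR3, LBP, TLR2 and TIRAP were lost, and so were those between genotypes of CRK, C4B, CR1L, LYZ2, VSIG4, CTSS, TLR1 and TLR2. In the authors' matrix, TIMD4, CR1L, LYZ2, CTSS and TLR6 no longer passed between genotypes.

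**Figure D4:**
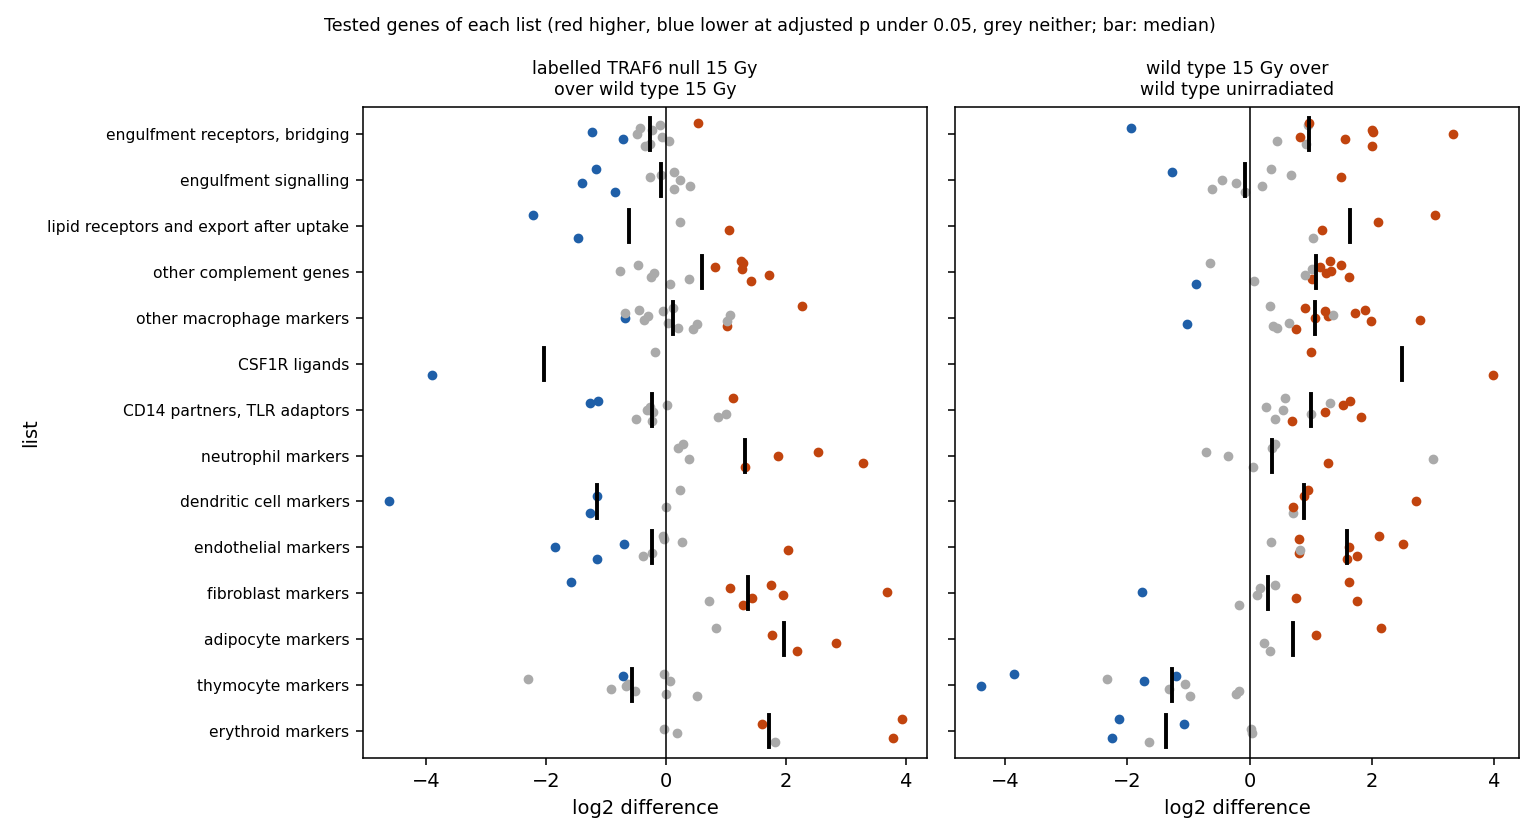
Log2 difference of each tested gene (points, horizontal axis) in 14 lists (vertical axis), in thymus labelled TRAF6 null over irradiated wild type on the left and in irradiated over unirradiated wild type on the right, with red for higher, blue for lower, grey for genes that did not pass and a black bar at each list's median. The macrophage, engulfment receptor, complement, CD14 partner and dendritic cell lists have medians near 1 on the right. Those of the endothelial, lipid and CSF1R ligand lists are higher there, at 1.59, 1.65 and 2.50. With dim genes at their bound, medians on the right are 1.06 for the endothelial, 2.09 for the CSF1R ligand, 0.81 for the macrophage and 0.705 for the dendritic cell list. On the left, fibroblast, adipocyte, neutrophil and erythroid markers lie furthest to the right.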

How the data were processed

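Mouse thymus RNA was measured on 5 Illumina bead arrays after Trizol extraction, per the labels' protocols. The deposited non-normalized table holds, per the file headers, for every array the bead-averaged intensity (linear), the bead count, the standard error of that signal and a detection p-value. Each array has 1 signal per gene name, so several probes had been averaged before deposit, and detection p-values of such rows do not follow the signal. The authors' matrix holds intensities equal to these times 1 constant per array. The software and genome build used by the authors are not given in the sources used here. The number of arrays limits precision. The 10 genes had 20 to 57 beads per array and bead standard errors of 2.53% to 5.62% of the signal.

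Signals were corrected with limma 3.58.1 in R 4.3.3 (normexp on negative controls, offset 16, which pulls folds of dim genes towards 1), quantile-normalized and taken to log2. Mean and SD of the 936 negative controls were estimated from the signal of single-probe rows at detection p 0.02 to 0.98. The 11563 rows whose detection p was below 0.01 on 2 or more arrays were fitted with lmFit and eBayes over the 5 arrays (2 residual and 2.88 prior degrees of freedom, two-sided, Benjamini-Hochberg adjustment at 0.05). A row detected on the unirradiated array alone could thus not be tested, while a row detected on irradiated arrays alone could be. A row counted as above background where its signal passed the 99th percentile of negative controls or its detection p was below 0.01. The code was also tested on simulated data with known changes. Alternatives changed the background, offset, scaling, filter, source table or arrays used. Names were updated through the GRCm38.p6 gene table, where 16223 matched a symbol, 5684 a synonym and 8947 neither. Groups came from sample labels. The main fit did not pair arrays by replicate number. Deviations of same-numbered arrays correlated at 0.0316 across rows, which with 2 arrays a group cannot show whether such arrays belong together.

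The members and the gene lists were chosen with earlier results of these data known. In each list, up to 3 genes past the threshold with the largest change are named per comparison; for profiles, the 5 closest rows. GAS6, IL34, PROS1, STAB1, SPI1 and TLR4 were also named for their roles or after their values were seen.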

Additional observations from a re-analysis of the deposited data

How the results depend on the processing

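The count of members called between genotypes (3) was 1 when neqc inferred the background itself, and the count for thymus labelled TRAF6 null over unirradiated wild type (8) was then 5. With 1 array left out, these counts ran from 0 to 4 and from 5 to 8, and the count for irradiated over unirradiated wild type (7) from 0 to 8, with the 0 values once an irradiated wild-type array was left out. Rows called in all between genotypes then numbered 308 higher and 389 lower without array 1 and 10 and 44 without array 2. Without array 1 or array 2 labelled TRAF6 null, a larger share of all rows passed in each comparison than in the main fit. Member counts from those fits stand beside that general rise. Of 24 member differences under 292 alternatives, 252 kept direction and side of the threshold, 31 lost the call, 5 gained it and 4 reversed. Between genotypes, MERTK (0.14) was -0.12 under median scaling and -0.27 in the authors' matrix. With 1 array left out, MERTK ran from -0.10 to 0.38, CD68 (-0.30) from -0.61 to 0.0194 and PROS1 (-0.23) from -0.72 to 0.27. The cause was not tested. Of 79 list gene differences under 987 alternatives added after the data were seen, 775 kept direction and side, 210 lost the call, 1 gained it and 1 reversed. With a replicate block, 3 members were called between genotypes, as without it, and no member's call changed. Scaling moved the median of all rows to 0.26 in the authors' matrix for irradiation of wild type, and to -0.28 there and -0.19 under median scaling between genotypes. Calls between genotypes, 2411 higher and 2644 lower, were then 1247 and 4390, and 1965 and 3410. For irradiation of wild type, 2145 higher and 2027 lower were 3392 and 1484 in the matrix, and for thymus labelled TRAF6 null over unirradiated wild type 1573 and 1727 were 1031 and 1845. With neqc's own background they were 1405 and 1546 between genotypes, 1138 and 1625 for irradiation, and 672 and 1159 for the last comparison. Signal near background limits MERTK, MSR1, CD36, CSF1, NR1H3, VSIG4 and IL34.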
